A study of Mus musculus with 12 samples.

Results

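The adrenomedullin system was followed through 5 genes of the deposited table of 55416 genes, namely the ligand gene Adm (ENSMUSG00000030790), the receptor gene Calcrl (ENSMUSG00000059588) and the receptor activity-modifying protein genes Ramp1 (ENSMUSG00000034353), Ramp2 (ENSMUSG00000001240) and Ramp3 (ENSMUSG00000041046). They were taken by name, and the set was chosen by the drop of Ramp3 between media, among the largest of all genes. The differences between media of these 5 genes are therefore given as a description, with no test. The cells were C2C12, a standard mouse myoblast line, and gene expression was measured by RNA sequencing. The design crossed 2 genotype labels, wild type (WT) and Mapk14 knockout (KO), with 2 media, growth medium (GM, 10% fetal bovine serum) and differentiation medium (DM, 2% horse serum), for 5 days. Each of the 4 groups, WT GM, KO GM, WT DM and KO DM, had 3 libraries that the labels call biological replicates. All 4 groups were of the same parental line, all were grown in GM before the medium was changed or kept, and the labels give 1 batch date. What separated the replicates, and whether the KO-labelled cells were 1 clone or several, is not given in the sources used here, so the p-values measure the spread between these libraries.

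Adrenomedullin is a secreted, amidated peptide best known for relaxing blood vessels and keeping the vascular and lymphatic endothelium intact. Its receptor is a complex: the class B G protein-coupled receptor Calcrl reaches the cell surface with a RAMP, and the RAMP sets what it binds, with Ramp1 giving the receptor for calcitonin gene-related peptide and Ramp2 or Ramp3 giving adrenomedullin receptors. The complex couples mainly to the stimulatory G protein and raises cyclic AMP, and Ramp3 also steers the receptor after internalization. Adm itself is a gene induced by low oxygen.

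Mapk14 (ENSMUSG00000053436), the p38 alpha kinase gene that the knockout label refers to, ranged over 108 to 135 CPM (counts scaled to library size) in the WT GM libraries and over 130 to 137 CPM in the KO GM libraries. In DM the ranges were 88.7 to 93.9 CPM for WT and 84.5 to 93.8 CPM for KO-labelled cells. Its RNA was thus not lower under the knockout label in either medium (log2 difference 0.11 ± 0.08 (SE) in GM, adjusted p = 0.35, and -0.03 ± 0.08 in DM, adjusted p = 0.82), and these cells are called KO-labelled throughout. Libraries held 8821669 to 11536396 counts and 16039 to 16677 genes with a count. The 8 myoblast markers looked at were all present, with a summed level of 632 to 777 CPM in the lowest group, KO GM. In both GM groups replicate 3 stood further from replicates 1 and 2 than those did from each other, so values without these libraries are given where they matter. Of 12 endothelial markers, Emcn and Cldn5 had 0 counts in every library and 5 markers, these included, never passed 3 counts.

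The upstream sequences of Adm and Ramp3 are shown because these are the 2 genes of the system with the highest levels per length in GM and lower levels in DM. RefSeq promoter windows (250 bases before to 50 after a gene start, build GRCm38.p6) were found for 4 of the 5 genes, all but Ramp2. The stretches below are the bases before the most upstream RefSeq start, both on the plus strand, chr7:110627407-110627656 for Adm and chr11:6658283-6658505 for Ramp3. Capitals mark GCGTG, or CACGC where it is on the other strand, the core letters of elements bound by ARNT-containing factors such as the hypoxia-inducible factors and the aryl hydrocarbon receptor.
Adm: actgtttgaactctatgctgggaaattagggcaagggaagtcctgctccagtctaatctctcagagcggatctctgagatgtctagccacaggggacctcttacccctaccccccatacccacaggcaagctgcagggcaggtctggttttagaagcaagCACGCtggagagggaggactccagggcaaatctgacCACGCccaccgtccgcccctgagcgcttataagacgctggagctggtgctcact
Ramp3: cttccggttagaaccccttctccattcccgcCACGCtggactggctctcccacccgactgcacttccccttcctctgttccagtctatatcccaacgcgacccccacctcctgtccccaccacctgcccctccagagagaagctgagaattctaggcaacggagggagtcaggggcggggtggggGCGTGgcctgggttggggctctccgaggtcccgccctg
The window of Adm and that of Ramp3 each held GCGTG 2 times, that of Calcrl held it 1 time and that of Ramp1 lacked it. On both strands, 32.39% of all 32851 RefSeq windows of 300 bases held these letters at least 1 time. The related core ACGTG, present in 19.62% of all windows, was in none of the 4. The E-box letters CANNTG, bound by myogenic factors among many others, occurred 1 time each in Ramp3 and Ramp1, and in 72.31% of all windows. The Sp1 letters GGGCGG occurred 3 times in Ramp3 and 1 time each in Adm and Calcrl, against 35.66% of all windows. TGACG, the core of the cyclic AMP response element, occurred in Ramp1 only, 1 time (20.81% of windows), and the AP-1 letters TGANTCA in none of the 4 (7.808%). A match is a description of letters and not of binding.

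Adm, the ligand gene, was expressed in all 12 libraries. In WT GM its 3 libraries were at 14.1, 10.2 and 13.6 CPM (replicates 1 to 3), and in KO GM at 13.5, 17.5 and 19.4 CPM. In WT DM they were at 5.88, 6.33 and 5.99 CPM, and in KO DM at 4.66, 5.14 and 3.25 CPM. Every GM library was above every DM library, the 2 GM groups overlapped, and the KO DM libraries were all below the WT DM libraries. The log2 difference between DM and GM was -1.06 ± 0.19 in WT cells (368 counts in GM and 173 in DM over the group) and -1.95 ± 0.19 in KO-labelled cells (547 and 136 counts). In bulk RNA fewer cells with a transcript and less of it per cell cannot be told apart.

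Between genotypes, Adm did not pass the threshold in either medium by edgeR's quasi-likelihood test: its log2 difference, KO-labelled minus WT, was 0.42 ± 0.17 in GM (adjusted p = 0.0958) and -0.48 ± 0.21 in DM (adjusted p = 0.0957). The opposite signs add up in the interaction, the DM response of the KO-labelled cells minus the WT response, which was -0.90 ± 0.28 (adjusted p = 0.0449). Adm was the only member called there, 1 of 4 tested, where 8.86% of all 13250 genes were called (5.25% lower and 3.61% higher); with total counts alone as scaling 57.8% of the calls were higher, against 40.7% with TMM scaling. The value was negative, between -1.01 and -0.71, in all 22 alternatives, but was called in 8 of them, with adjusted p from 0.0235 to 0.144. Leaving out any of 9 libraries ended the call: replicate 1, 2 or 3 of WT DM (-0.90, -0.85 and -0.88), replicate 1 or 2 of WT GM (-0.96 and -0.75), replicate 1 or 3 of KO DM (-0.92 and -0.71), and replicate 2 or 3 of KO GM (-0.85 and -0.76). Without replicate 1 of KO GM, the lowest library of its group, the GM difference between genotypes became 0.54 with adjusted p = 0.0415.

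**Figure D1:**
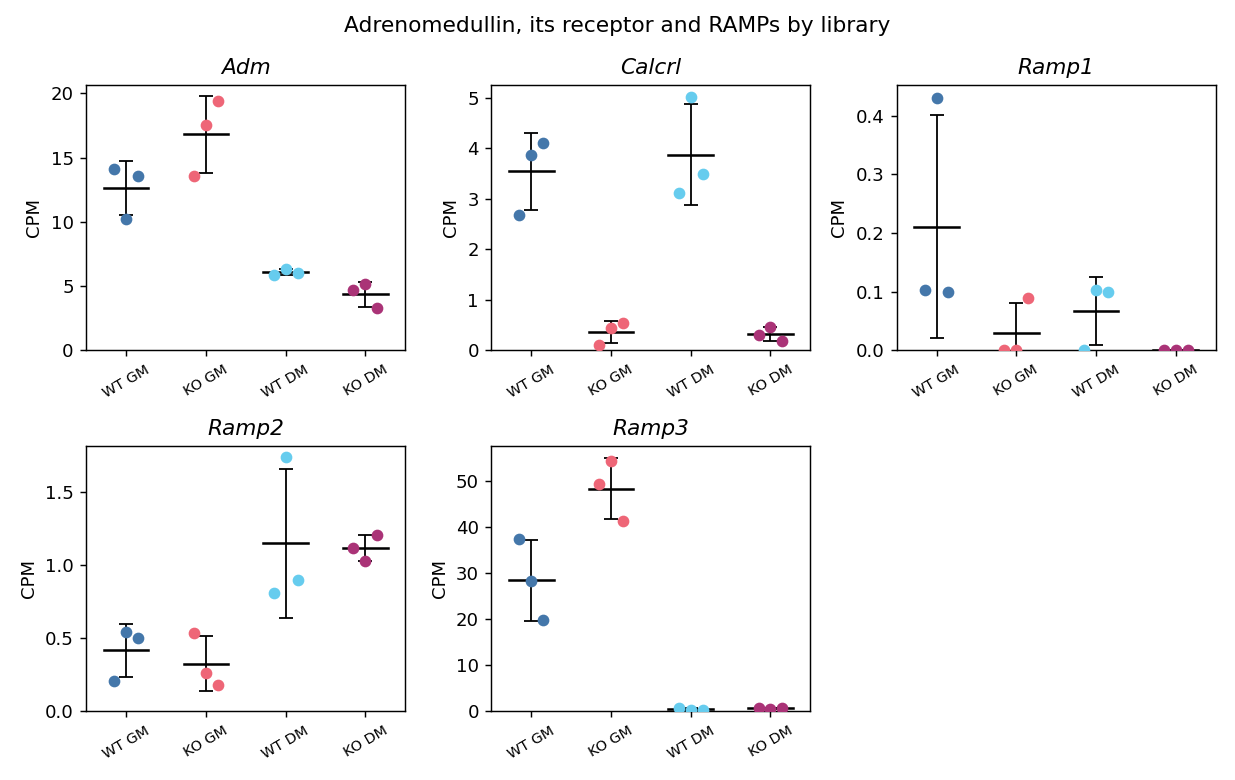
Level of Adm, Calcrl, Ramp1, Ramp2 and Ramp3 in CPM on linear axes that start at 0 and differ between panels; each point is a library, the bar is the mean and the whiskers the SD of 3 libraries. Calcrl separates by genotype label in both media, whereas Ramp3 and Adm separate by medium, with Ramp3 between 19.8 and 54.3 CPM in GM and below 1 CPM in DM.

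Calcrl, the receptor gene of the adrenomedullin complexes, was low in WT cells and close to the counting floor in KO-labelled cells. In WT GM it had 26, 36 and 41 counts (2.67, 3.87 and 4.09 CPM), and in KO GM 1, 5 and 6 counts (0.107, 0.433 and 0.532 CPM). In WT DM it had 27, 49 and 35 counts (3.11, 5.01 and 3.49 CPM), and in KO DM 3, 5 and 2 counts (0.304, 0.467 and 0.186 CPM). All 6 WT libraries were above all 6 KO-labelled libraries, with no overlap, and the media overlapped within each genotype label. A count of 0 in a library would allow up to 3 counts, or 0.26 to 0.346 CPM, so several KO-labelled libraries were at or near that limit.

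Calcrl fell in the KO-labelled cells in both media. In GM the log2 difference was -3.21 ± 0.44 (adjusted p = 1.07e-05, edgeR's quasi-likelihood test), and the summed counts of 103 and 12 gave a level 9.49-fold higher in WT (95% interval 5.21 to 19.0, counting error only). In DM it was -3.55 ± 0.45 (adjusted p = 2.2e-06), with 111 and 10 counts and a 12.2-fold higher level in WT (6.40 to 26.2). The interaction of -0.34 ± 0.73 (adjusted p = 0.83) did not separate these sizes, and the call held in every alternative of both comparisons. The difference between media was 0.13 ± 0.32 in WT cells and -0.21 ± 0.65 in KO-labelled cells.

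Calcrl is known as a gene of endothelium, and markers of that type were low, with 5 of 12 never above 3 counts: the 12 endothelial markers together came to 2.59 to 3.12 CPM in the WT and 3.33 to 4.26 CPM in the KO-labelled libraries in GM, and to 3.11 to 5.79 and 3.44 to 5.51 CPM in DM, ranges that overlapped between genotype labels in DM but not in GM. The summed level of the 8 myoblast markers did move with the genotype label. It was 1833 to 2045 CPM in WT GM against 632 to 777 CPM in KO GM. In DM it was 4241 to 4305 CPM in WT against 1643 to 1827 CPM in KO-labelled cells. Of the 8 markers, 7 fell in KO GM against WT GM and 1 was not called. In KO DM against WT DM all 8 fell, and 6 to 8 did so over the alternatives. The summed level of 8 smooth muscle markers, shared in part with muscle, was also lower in KO-labelled cells (2449 to 2538 against 3724 to 4262 CPM in GM, 2320 to 2547 against 5135 to 5409 CPM in DM). Of the 7 of these tested, 4 fell in GM, and in DM 6 fell and 1, the kinase gene Mylk, rose (1.2 ± 0.27, adjusted p = 0.00311). Of all genes tested between genotype labels, 10.6% fell in GM, and 17.4% fell and 13.6% rose in DM. Of 7 epithelial markers only the keratin gene Krt14 was tested, and it rose in KO DM against WT DM, to 13.4, 13.7 and 14.4 CPM (2.32 ± 0.28, adjusted p = 1.35e-06), while Epcam, Krt18 and Cldn4 had 0 counts in every library. Krt14 also rose in KO GM against WT GM (1.48), in WT DM against WT GM (1.27) and in KO DM against KO GM (2.11). The first of these calls was lost without both GM replicate 3 libraries (0.94). The second was lost without replicate 2 of WT DM (0.81) or of WT GM (1.10). The part of these markers in the result was not tested.

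Ramp3, the RAMP that gives an adrenomedullin receptor and binds trafficking proteins, was well expressed in GM and nearly absent in DM. Its libraries were at 37.3, 28.2 and 19.8 CPM in WT GM and at 49.3, 54.3 and 41.2 CPM in KO GM. In DM they held few counts, 6, 3 and 3 in WT cells (0.691, 0.306 and 0.299 CPM) and 7, 5 and 7 in KO-labelled cells (0.709, 0.467 and 0.65 CPM). Every KO GM library was above every WT GM library, while the DM groups overlapped and lay near the counting floor.

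The values that chose Ramp3 were a log2 difference of -6.03 ± 0.33 between WT DM and WT GM and of -6.29 ± 0.29 between KO DM and KO GM. In summed counts these are 823 against 12, a 67.3-fold difference (95% interval 38.3 to 131), and 1551 against 19, a 79.6-fold difference (50.8 to 133). Of the 4 members that passed the filter, Ramp3 and Adm were past the threshold downward and Ramp2 upward in each comparison of media, and the same 3 genes did not overlap between media. Of all genes tested, 33.2% were called in WT cells (14.8% lower and 18.4% higher) and 40.6% in KO-labelled cells (19.8% lower and 20.8% higher). Groups did not overlap for 20.6% downward and 23.7% upward in WT cells, and for 25.1% and 25.6% in KO-labelled cells. Nothing is read from these counts, since the choice used the contrast. The interaction of Ramp3 was not called by edgeR's quasi-likelihood test (-0.25 ± 0.75, adjusted p = 0.88). This estimate rests on 3 to 7 counts a library in DM. It is also the difference of the values that chose Ramp3. The test therefore cannot decide whether the response to DM was alike in the genotype labels, and no conclusion is drawn from it.

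Ramp3 rose in KO-labelled cells in GM, by 0.77 ± 0.17 on the log2 scale (adjusted p = 0.00326, edgeR's quasi-likelihood test), higher in 3 of 3 libraries than in any WT GM library. With Calcrl it made 2 of 4 members called in that comparison, where 20.7% of all genes tested were called (10.0% higher and 10.6% lower) and groups did not overlap for 15.8% upward and 16.5% downward. In DM, where Calcrl was the only member called (31.0% of all genes called, 17.4% lower and 13.6% higher), and where groups did not overlap for Calcrl and Adm downward (26.2% of all genes, and 21.3% upward), Ramp3 differed by 0.51 ± 0.66 (adjusted p = 0.61). These comparisons share groups with those of the media and are not independent of them. A fit of only the 6 GM libraries gave 0.76 with adjusted p = 0.0532, and over the other alternatives the call held, with values from 0.55 (without replicate 3 of WT GM) to 1.01. Replicate 3 of WT GM had the lowest Ramp3 of its group and also the highest Myog, a myogenic transcription factor gene, at 220 CPM against 127 and 143 CPM in replicates 1 and 2. Without replicate 3 of both GM groups Ramp3 differed by 0.65 (adjusted p = 0.000556).

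Ramp2, the RAMP of the main vascular adrenomedullin receptor, was near the floor. It had 2, 5 and 5 counts in WT GM (0.206, 0.537 and 0.499 CPM) and 5, 3 and 2 in KO GM (0.537, 0.26 and 0.177 CPM). In DM it had 7, 17 and 9 counts in WT cells (0.806, 1.74 and 0.898 CPM) and 11, 11 and 13 in KO-labelled cells (1.11, 1.03 and 1.21 CPM). Every DM library was above every GM library, and the genotype labels overlapped in both media. The log2 difference between media was 1.45 ± 0.55 in WT cells and 1.79 ± 0.56 in KO-labelled cells.

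Ramp2 was not separated by genotype label (log2 difference -0.39 ± 0.68 in GM, adjusted p = 0.75, and -0.05 ± 0.46 in DM, adjusted p = 0.95). At 10 to 35 summed counts per group only large differences could have been detected. Ramp2 overlaps Vps25, a gene for a membrane sorting subunit with far higher counts, on the same strand in the annotation used here, so the assignment of its few reads is uncertain. The antisense genes that overlap Ramp3 (Gm11978) and Adm (Gm28863) had 0 counts in every library. Ramp1, which gives the receptor for calcitonin gene-related peptide, had 9 counts in all 12 libraries, 1, 4 and 1 in WT GM, 0, 0 and 1 in KO GM, 0, 1 and 1 in WT DM and 0 in each KO DM library, and was left out by the filter. At this depth Ramp1 was at or under the floor in nearly every library.

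**Figure D2:**
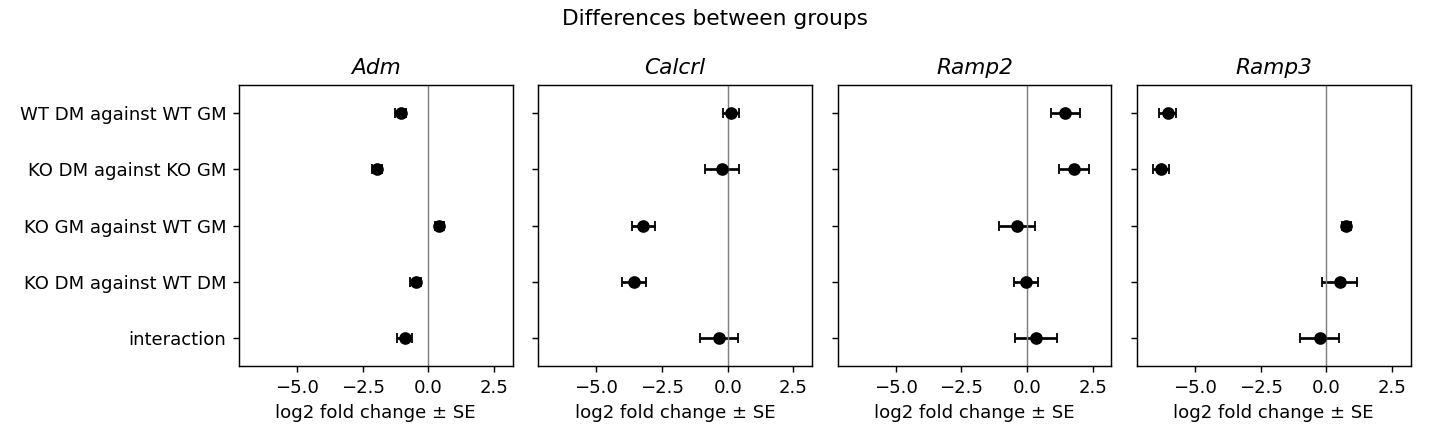
Log2 fold changes with SE of the 4 members tested, for the 2 comparisons of media (description only), the 2 comparisons of genotype labels and the interaction; the vertical line marks no difference. Calcrl stands to the left of the line in both genotype comparisons (-3.21 and -3.55) and Ramp3 in both comparisons of media (-6.03 and -6.29).

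Set against each other per length (CPM per kilobase of exon, from GENCODE M21 gene models of build GRCm38), the 5 genes kept no single order. In WT GM, Ramp3 was highest at 23.0 ± 7.13 (SD, n = 3), followed by Adm at 9.08 ± 1.52, Calcrl at 0.726 ± 0.156 and Ramp2 at 0.318 ± 0.140. In KO GM, Ramp3 was at 39.2 ± 5.36 and Adm at 12.1 ± 2.16, while Ramp2 at 0.250 ± 0.145 now stood above Calcrl at 0.0732 ± 0.0455. Among these neighbours the libraries did not overlap, though for Ramp2 and Calcrl in KO GM by a narrow margin (lowest Ramp2 0.136, highest Calcrl 0.109). In DM the ligand led.

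In WT DM Adm was at 4.36 ± 0.172 CPM per kilobase, followed by Ramp2 at 0.882 ± 0.394 and Calcrl at 0.793 ± 0.205, whose libraries overlapped, and by Ramp3 at 0.351 ± 0.182. In KO DM Adm was at 3.13 ± 0.705, Ramp2 at 0.859 ± 0.0694, Ramp3 at 0.494 ± 0.103 and Calcrl at 0.0653 ± 0.0289, with no overlap between neighbours. Ramp1 was lowest in each group, from 0.0698 in WT GM to 0 in KO DM. In GM the receptor transcript was thus below the transcript of its RAMP partner Ramp3 in both genotype labels, and in WT DM it was above it.

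**Figure D3:**
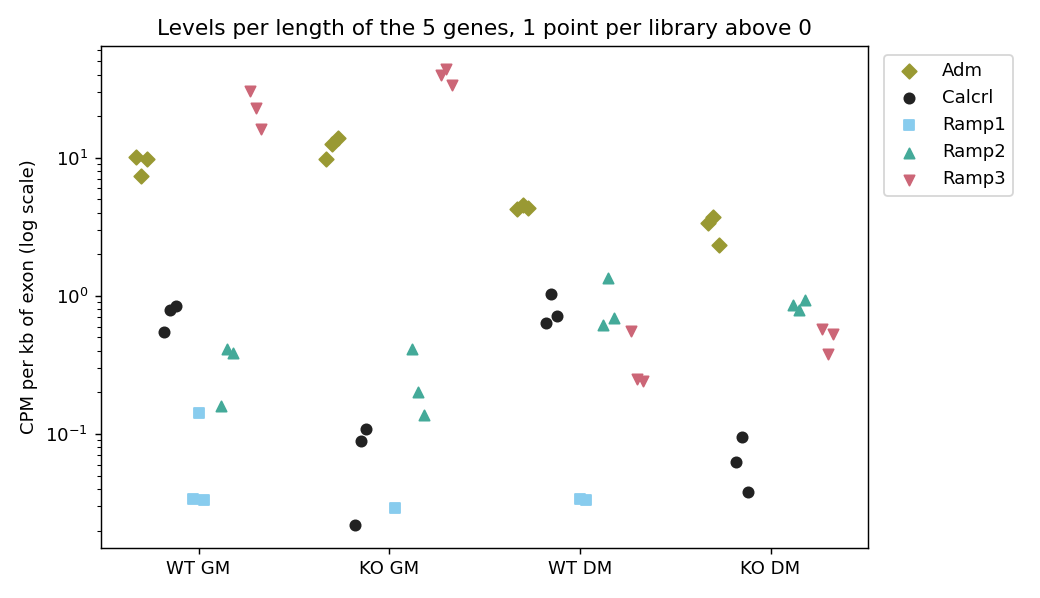
Level of the 5 genes per length, in CPM per kilobase of exon on a log axis, with a point for each library above 0, by group. Ramp3 is the highest gene in both GM groups and lies below Adm and Ramp2 in both DM groups, while Calcrl is at 0.548 to 1.03 in WT libraries and at 0.0220 to 0.109 in KO-labelled libraries.

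The genes whose log2 CPM followed each member most closely were taken by Pearson's r over the 12 libraries, as a description; the libraries share 4 groups, so any gene that separates the same groups has a high r. For Ramp3 they were Tsc22d1 (r = 0.993), Grem1 (0.991), Tm4sf1 (0.991), Clcf1 (0.990) and Glrx (0.989). Pearson's r does not measure the size of a change, and each of these genes differed far less between media than Ramp3. In WT GM and WT DM the mean of Tsc22d1 was 706 and 436 CPM, and that of Grem1 was 2308 and 686 CPM. For Calcrl they were Ccdc6 (r = 0.988), Myf5 (0.976), Pde3b (0.975), Etv1 (0.975) and Il2rg (0.974). Sizes varied among these genes. In WT GM and KO GM the mean of Ccdc6 was 63.8 and 49.8 CPM, and that of Etv1 was 5.15 and 0.429 CPM. Myf5, a myogenic determination factor gene, was at a mean of 18.8 CPM in WT GM and 26.7 CPM in WT DM against 4.97 and 4.69 CPM in KO-labelled cells. Like Calcrl it was lower in KO-labelled cells in both media, but its WT mean was higher in DM, where Calcrl differed little between media. For Adm they were Pgm1 (r = 0.980), Ndrg1 (0.971), Fam131b (0.968), Mthfd1l (0.968) and Ero1l (0.967), of which Ndrg1 and Ero1l are known as genes induced by low oxygen. For Ramp2, Tbc1d31 was closest (r = 0.932), on few counts.

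Of the other ligands and receptors of the calcitonin family, Adm2 (ENSMUSG00000054136), which encodes intermedin, a peptide that acts through the same Calcrl and RAMP complexes, was the only peptide gene with usable counts. Adm2 was at 4.83, 3.44 and 4.89 CPM in WT GM and at 2.15, 1.82 and 1.24 CPM in KO GM. In DM it was at 1.15, 1.02 and 1.1 CPM in WT cells and at 0.203, 0.28 and 0.0929 CPM in KO-labelled cells. These KO DM values were at or under the floor of 3 counts (0.304, 0.28 and 0.279 CPM). The sizes of the differences that involve KO DM are therefore uncertain. The 4 groups did not overlap, and WT was above KO-labelled in both media. Adm2 fell in KO-labelled cells in GM (-1.35 ± 0.31, adjusted p = 0.00315) and in DM (-2.43 ± 0.55, adjusted p = 0.0017). It also fell from GM to DM, by 2.00 ± 0.34 on the log2 scale in WT cells (adjusted p = 7.42e-05) and by 3.09 ± 0.51 in KO-labelled cells (adjusted p = 3.71e-05). Without replicate 3 of both GM groups the GM difference between genotypes was -1.07 with adjusted p = 0.0508.

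Both ligand genes were thus lower in DM, but only Adm2 was called between genotype labels within a medium; whether the 2 genes differ in this was not tested. Crcp, which encodes a small intracellular protein that helps couple Calcrl to signalling, fell by 0.50 ± 0.10 in WT cells (adjusted p = 0.000534) and by 0.48 ± 0.10 in KO-labelled cells (adjusted p = 0.000672) on moving to DM. The genes for calcitonin and its related peptides, Calca, Calcb and Iapp, had 1 count each over all 12 libraries, and the calcitonin receptor gene Calcr had 0.

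**Figure D4:**
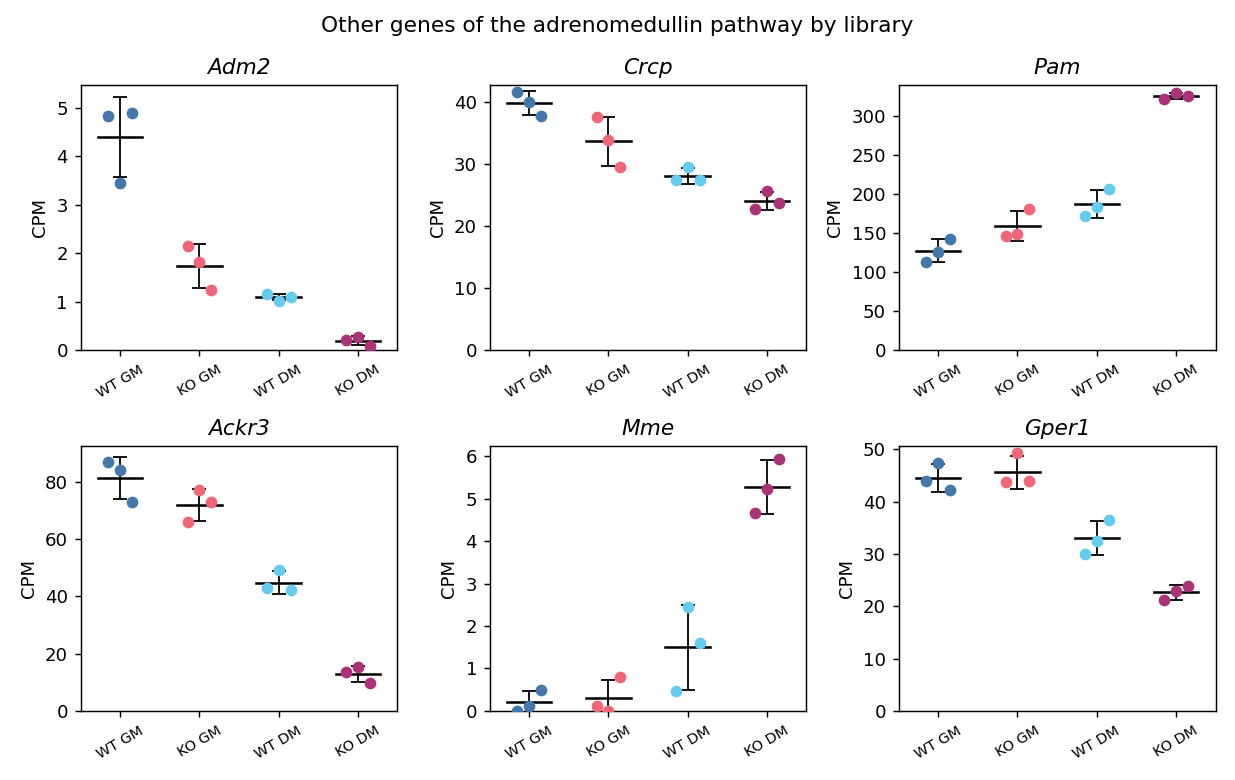
Level in CPM, on linear axes from 0 that differ between panels, of 6 other genes of the system by library, with the mean and SD of 3 libraries: Adm2 (a second peptide), Crcp (a coupling protein), Pam (peptide amidation), Ackr3 (a scavenger receptor), Mme (a peptidase) and Gper1 (a RAMP partner receptor). Ackr3 and Pam move apart in KO DM, to 12.9 and 326 CPM on average.

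Among 8 genes of peptide processing and clearance, all tested, changes went both ways (median log2 difference between 0.07 and 0.17 in the 4 comparisons of groups, where the median of all genes tested was between -0.022 and -0.0010). Pam, the enzyme that amidates adrenomedullin to its active form, rose in DM in WT cells (0.56 ± 0.09, adjusted p = 5.98e-05) and in KO-labelled cells (1.04 ± 0.09, adjusted p = 9.01e-09). It was at 172, 183 and 207 CPM in WT DM and at 322, 329 and 326 CPM in KO DM, and also rose in KO-labelled cells within DM (0.80 ± 0.09, adjusted p = 5.83e-07) and GM (0.32 ± 0.09, adjusted p = 0.0157). The GM call of Pam was lost without replicate 1 or 2 of WT GM (0.24 and 0.31), without replicate 3 of KO GM (0.21), and with only the 6 libraries compared (0.31). Ackr3, an atypical receptor that takes adrenomedullin up without G protein signalling, went the opposite way.

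Ackr3 was at 86.8, 83.9 and 72.9 CPM in WT GM, 65.8, 77.1 and 72.8 CPM in KO GM, 42.7, 49.2 and 42 CPM in WT DM and 13.5, 15.4 and 9.85 CPM in KO DM. The GM groups overlapped and the KO DM libraries were far below all others. Ackr3 fell in DM by 0.86 ± 0.11 in WT cells (adjusted p = 2.75e-06) and by 2.48 ± 0.13 in KO-labelled cells (adjusted p = 2.6e-12), and the interaction of -1.62 ± 0.17 was called (adjusted p = 3.72e-06) in each of its 22 alternatives. Ece1, a membrane peptidase, fell in KO-labelled cells in both media (-0.62 ± 0.08 in GM and -0.72 ± 0.08 in DM).

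Mme, the peptidase neprilysin, held 0 to 9 counts per GM library and 46, 56 and 64 counts in KO DM, and rose there against KO GM (4.04 ± 0.67, adjusted p = 0.00013) and against WT DM (1.78 ± 0.52, adjusted p = 0.0163). The rise of Mme against WT DM was not called by DESeq2 (1.82, adjusted p = 0.19), nor without replicate 1 or 3 of WT DM (1.39 and 1.83) or replicate 3 of KO DM (1.70).

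Of the 8 genes of peptide processing and clearance, 3 rose and 3 fell in KO DM against KO GM, and 4 rose and 3 fell in WT DM against WT GM. The 4 rises in WT cells became 1 without replicate 3 of WT DM or replicate 2 of WT GM, and 2 without replicate 2 of WT DM or replicate 1 of WT GM. In KO DM against WT DM, 4 rose and 2 fell, the rises becoming 2 without replicate 1 or 3 of WT DM or replicate 3 of KO DM. Of all genes tested 33.2% were called between media in WT cells, 40.6% in KO-labelled cells and 31.0% between genotype labels in DM.

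Other receptors that can pair with RAMPs were mostly absent: of 10, 3 passed the filter. Gper1, a membrane estrogen receptor described as a partner of Ramp3, was at 42.2 to 47.5 CPM in WT GM and 43.7 to 49.3 CPM in KO GM, against 30.1 to 36.5 CPM in WT DM and 21.2 to 24.0 CPM in KO DM. It fell in DM by 0.43 ± 0.10 in WT cells (adjusted p = 0.00154) and by 1.01 ± 0.10 in KO-labelled cells (adjusted p = 4.09e-08), with an interaction of -0.58 ± 0.14 (adjusted p = 0.0121). That interaction was no longer called without replicate 3 of WT DM (-0.47), replicate 1 of KO DM (-0.50) or replicate 2 of KO GM (-0.50). Pth1r, the parathyroid hormone receptor gene, rose in WT DM against WT GM (1.66 ± 0.51, adjusted p = 0.0153), with 5, 9 and 9 counts in GM and 11, 21 and 41 in DM, a call lost without replicate 3 of WT DM (1.10) or replicate 1 of WT GM (1.42). Vipr1, a receptor for vasoactive intestinal peptide, fell in KO GM against WT GM (-1.81 ± 0.52, adjusted p = 0.0152, on 16 and 51 summed counts), a call lost without replicate 2 of WT GM (-1.55) or replicate 1 of KO GM (-1.51).

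Of 8 tested genes that act in receptor trafficking (9 listed), 3 fell in DM in each genotype label (14.8% of all genes tested fell in WT cells and 19.8% in KO-labelled cells), namely Arrb1, an arrestin, Nsf, an ATPase described as binding the tail of Ramp3, and Grk6, a receptor kinase. Their log2 differences were -0.64 ± 0.12, -0.59 ± 0.08 and -0.58 ± 0.11 in WT cells, with adjusted p of at most 0.000358. In KO-labelled cells they were -0.79 ± 0.12, -0.44 ± 0.08 and -0.63 ± 0.11, with adjusted p of at most 0.000187. A further gene of the list rose in WT cells, a call lost without replicate 2 or 3 of WT DM or replicate 3 of WT GM, and the other 5 were not called in KO-labelled cells. The 3 of 8 called in KO-labelled cells are near the 40.6% of all genes called there. The list median was -0.42 in WT cells and -0.23 in KO-labelled cells.

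Genes that make and break down cyclic AMP changed in both directions between genotype labels. Of 16 tested (20 listed), 4 rose and 4 fell in KO GM against WT GM (median -0.04), and 4 rose and 4 fell in KO DM against WT DM (median 0.11), where 20.7% and 31.0% of all genes tested were called. Phosphodiesterase genes were among those called in each direction. Pde3b was at 18.8, 17.7 and 25.1 CPM in WT GM and 6.87, 7.28 and 7.63 CPM in KO GM, a fall of 1.5 ± 0.16 on the log2 scale (adjusted p = 3.19e-07), and fell by 1.48 ± 0.16 in DM (adjusted p = 2.2e-07). Pde3a fell by 1.63 ± 0.14 in GM (adjusted p = 1.44e-08) and by 1.17 ± 0.14 in DM (adjusted p = 1.2e-06).

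Pde7b, another cyclic AMP phosphodiesterase gene, had 31, 36 and 38 counts in WT GM and 0 in each KO GM library. Against a floor of 3 counts over the group it was at least 38.7-fold lower there. Pde8b, also a cyclic AMP phosphodiesterase gene, rose in KO DM against WT DM (3.09 ± 0.45, adjusted p = 1.45e-05), with 28, 23 and 36 counts against 2, 3 and 4. The adenylyl cyclase gene Adcy1 rose in KO-labelled cells, by 1.29 ± 0.23 in GM (adjusted p = 0.000314) and by 1.87 ± 0.29 in DM (adjusted p = 2.8e-05), with 2.57 to 3.65 CPM in WT GM and 7.09 to 8.84 CPM in KO GM.

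Downstream of cyclic AMP, 19 of 20 listed effector genes were tested. In KO DM against WT DM 3 rose and 6 fell (median -0.06), and in KO GM against WT GM 3 rose and 4 fell (median 0.07). Of all genes tested 13.6% rose and 17.4% fell in that comparison in DM, and 10.0% rose and 10.6% fell in GM. The rises in GM became 1 without replicate 2 of KO GM, and none was called without replicate 2 of WT GM or replicate 1 of KO GM. Akap12, a scaffold that holds protein kinase A near receptors, fell by 2.35 ± 0.27 in GM (adjusted p = 1.09e-06) and by 3.54 ± 0.31 in DM (adjusted p = 8.68e-09). Popdc3, a cyclic AMP-binding membrane protein of muscle, fell by 0.74 ± 0.08 in GM (adjusted p = 4.83e-07) and by 0.66 ± 0.08 in DM (adjusted p = 7.72e-07).

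Genes widely described as induced through cyclic AMP and CREB were mostly lower in DM. Of 12 tested (14 listed), 8 fell and 1 rose in WT cells (median -1.19), and 7 fell and 3 rose in KO-labelled cells (median -0.71). Of all genes tested 14.8% fell and 18.4% rose in WT cells, and 19.8% fell and 20.8% rose in KO-labelled cells. Nr4a2, an orphan nuclear receptor gene, was at 109, 120 and 112 CPM in WT GM and at 16.1, 12.2 and 5.99 CPM in WT DM. It fell by 3.33 ± 0.24 in WT cells (adjusted p = 2e-06) and by 3.32 ± 0.24 in KO-labelled cells (adjusted p = 1.9e-06), and Areg, a growth factor gene, fell by 1.86 ± 0.42 (adjusted p = 0.0066) and by 3.63 ± 0.46 (adjusted p = 0.000101). Sik1, a kinase gene induced by cyclic AMP, rose by 0.68 ± 0.11 in WT cells (adjusted p = 6.3e-05) and by 1.27 ± 0.12 in KO-labelled cells (adjusted p = 2.6e-08). Dusp1, a phosphatase gene, rose in KO-labelled cells (0.57 ± 0.11, adjusted p = 0.000163).

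Adm is a known target of the hypoxia-inducible factors, and 18 of 19 other hypoxia-induced or hypoxia-factor genes found in the table were tested. In WT cells 12 fell and 1 rose on moving to DM (median -0.35), and in KO-labelled cells 13 fell and 1 rose (median -0.76). The rises became 2 in WT cells and 3 in KO-labelled cells without replicate 3 of both GM groups, and 2 in KO-labelled cells without replicate 3 of KO GM. Of all genes tested 14.8% fell in WT cells and 19.8% in KO-labelled cells. In KO DM against WT DM 9 fell and the other 9 were not called (median -0.29; 17.4% of all genes fell).

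In KO GM against WT GM the list went both ways, with 7 rises and 4 falls (median 0.19; 10.0% of all genes rose and 10.6% fell). Those 4 falls became 1 without replicate 2 of WT GM, and 2 without replicate 1 of WT GM or replicate 1 or 2 of KO GM. Ndrg1, whose r with Adm was 0.971, ranged over 311 to 348 CPM in WT and 440 to 514 CPM in KO-labelled cells in GM, and over 177 to 182 and 144 to 174 CPM in DM. It rose in KO GM against WT GM (0.56 ± 0.08, adjusted p = 2.09e-05) and fell in DM by 0.85 ± 0.08 in WT cells (adjusted p = 3.06e-08) and by 1.56 ± 0.08 in KO-labelled cells (adjusted p = 2.83e-12).

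In the interaction 9 of the 18 fell and the other 9 were not called (median -0.32), where 5.25% of all genes tested fell and 8.86% were called. This count was 4 without replicate 3 of KO DM and 5 without replicate 3 of WT DM, replicate 2 of WT GM or replicate 2 of KO GM. Car9, a carbonic anhydrase gene, ranged over 97.6 to 105 CPM in WT and 125 to 143 CPM in KO-labelled cells in GM, and over 108 to 127 and 47.8 to 68.4 CPM in DM, so that only the KO DM group stood below the rest. Its interaction was -1.43 ± 0.14 (adjusted p = 2.03e-06), that of the prolyl hydroxylase gene Egln3 was -0.92 ± 0.10 (adjusted p = 3.72e-06) and that of Ndrg1 was -0.71 ± 0.11 (adjusted p = 0.000465). No value here measures oxygen or cell density in the cultures.

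**Figure D5:**
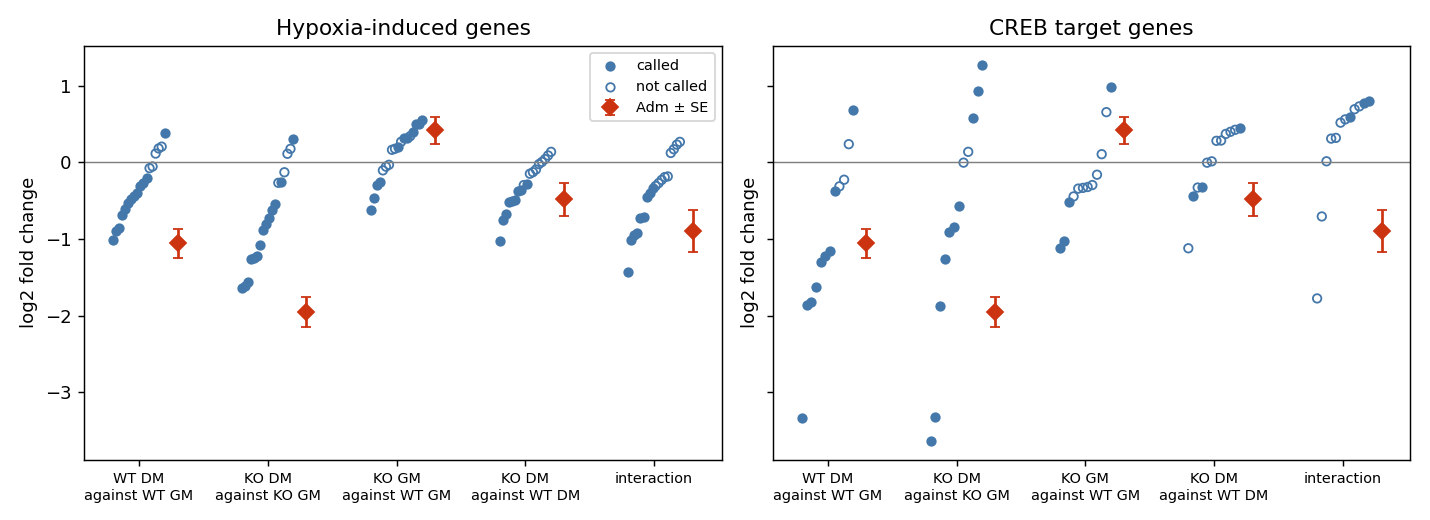
Log2 fold change of each tested gene of 2 lists, hypoxia-induced genes on the left and CREB target genes on the right, in the 5 contrasts; filled points were called, open points were not, and the diamond is Adm with its SE, repeated in both panels. Adm lies at the low end of the hypoxia-induced genes in both comparisons of media (-1.06 and -1.95) and above 0 in KO GM against WT GM (0.42). In KO DM against KO GM it lies below Ankrd37, the listed gene with the largest called change there. Over the alternatives Ankrd37 was between -1.79 and -1.47.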

How the data were processed

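Total RNA of 12 C2C12 libraries was sequenced in paired reads of 150 bases, per the labels. The authors deposited unnormalized whole-number counts by Ensembl gene, in 1 table whose 4 empty columns were not used. The submitters' processing notes name the build GRCm39, DESeq2 1.40.2, R 4.3.1, the quantifier RSEM 1.3.3 and the aligner STAR 2.7.1a. What made the counts, with which annotation release and strand setting, is not given in the sources used here. Symbols were matched for 52083 of 55416 genes.

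The analysis used edgeR 4.0.16 in R 4.3.3: filterByExpr by group kept 13250 genes (99.9% of counts), scaling used TMM (trimmed mean of M-values), and 1 robust quasi-likelihood model with a mean per group was fitted to all 12 libraries. CPM values use the TMM-scaled library sizes. Tests were 2-sided, adjusted by Benjamini-Hochberg over the 13250 genes of each of 5 contrasts, and called below 0.05; rose and fell are used of called genes. Changes are log2 fold changes ± SE, and other values mean ± SD (n = 3). The floor is 3 counts; it and the 95% intervals reflect counting error only, as reads that carry no molecular identifiers can be copies of a molecule. The code was tested on simulated data.

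The members, gene lists, tests and alternatives were chosen with earlier results of these data known. Named genes were Mapk14, the members, up to 4 called genes with the largest change of each list in each contrast (if no gene was called, the 2 of highest CPM), and the 5 genes of at least 5 CPM most correlated with each member; part of them is named. Alternatives were 3 other scalings, DESeq2 1.42.0, limma-voom (limma 3.58.1), no filter, a filter of 1 CPM and 10 counts in 3 libraries, no robust estimation, only the 6 libraries compared, the replicate number as a block, each library left out, and both GM replicate 3 libraries left out.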

Additional observations from a re-analysis of the deposited data

Results flagged for a closer look

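Of 33 named genes compared, 10 had a response to DM that differed between the genotype labels by the interaction term of edgeR's quasi-likelihood model (log2, KO-labelled minus WT, each from 3 libraries per group). The 33 were a part of the named genes, and genes with 0 counts in a whole group were left out. Pde7b, left out for that reason, was also called in the interaction. So were other named genes outside the 33, such as Ero1l and Ankrd37. Of all genes tested 8.86% were called there, and the named genes were taken in part for large called changes, so the count is not a rate for the system. The ligand gene Adm was among the 10 at -0.90 ± 0.28 (adjusted p = 0.0449), called in 8 of 22 alternatives. The response was lower in KO-labelled cells for the scavenger receptor gene Ackr3 (-1.62 ± 0.17, adjusted p = 3.72e-06), for the hypoxia-induced genes Car9 (-1.43 ± 0.14, adjusted p = 2.03e-06), Egln3 (-0.92 ± 0.10, adjusted p = 3.72e-06) and Ndrg1 (-0.71 ± 0.11, adjusted p = 0.000465), and for Gper1 (-0.58 ± 0.14, adjusted p = 0.0121). It was higher for the amidating enzyme gene Pam (0.48 ± 0.13, adjusted p = 0.0236), for Sik1 (0.59 ± 0.17, adjusted p = 0.0284), for Dusp1 (0.80 ± 0.15, adjusted p = 0.00158) and for Pde8b (2.45 ± 0.62, adjusted p = 0.0159). The calls of Gper1, Pam and Sik1 were each lost when some single libraries were left out (values from -0.50 to -0.47 for Gper1, 0.44 to 0.48 for Pam and 0.47 to 0.60 for Sik1), while those of Ackr3, Car9, Egln3, Ndrg1, Dusp1 and Pde8b held in every alternative run.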

How the results depend on the processing

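Over 20 results for the members, 333 of 351 recomputed values kept their call or, where nothing was tested, moved by less than the spread between replicates. Among the values that kept their call, 12 of 7 results that were not called changed sign: Calcrl between media in KO-labelled cells (up to 0.17) and WT cells (down to -0.11), Ramp2 between genotype labels in DM (up to 0.39) and GM (0.06), and the interactions of Calcrl (0.04), Ramp2 (-0.09) and Ramp3 (0.23). The calls that changed follow, and where no cause is named the cause was not tested. The Adm interaction lost its call with upper-quartile scaling (-0.87), total counts alone (-0.83), limma-voom (-0.93), the stricter filter (-0.87) and no robust estimation (-0.90), and ranged from -1.01 to -0.71 with each library left out. With a library left out, Adm in KO GM against WT GM ranged from 0.28 to 0.54, Ramp2 in KO DM against KO GM from 1.51 to 2.29, and Ramp3 in WT DM against WT GM from -6.51 to -5.79. Ramp3 in KO GM against WT GM was 0.76 with only the 6 libraries compared.

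The number of genes called in the interaction was 1174, ranged from 693 to 1920 with a library left out, and was 2709 without both GM replicate 3 libraries. Counts of list members that moved by over 1.5 times under other settings included the fallers in receptor trafficking in WT cells (3, and 5 with no filter), the rises among cyclic AMP effectors in KO GM against WT GM (3, and 0 with only the 6 libraries), and the falls of hypoxia-induced genes there (4, and 2 with only the 6 libraries). Not every such count is listed here. Rises of hypoxia-induced genes in WT cells went from 1 to 2 with the replicate block, and rises in peptide processing in WT cells went from 4 to 2 with only the 6 libraries.

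Whether replicate numbers pair the libraries was left undecided. The deviations of 18 same-numbered pairs had correlations from -0.085 to 0.186, with 4 above 0.1. However, 9 of 12 libraries correlated best with their own number. The main fit used no pairing, and the replicate block was run as an alternative. With the replicate block the Adm interaction was -0.89 (adjusted p = 0.0458), Ramp3 in KO GM against WT GM was 0.80 (adjusted p = 6.65e-05), and 1587 genes were called in the interaction; the block changed no call of the members. Depth limits Ramp1, Ramp2, Calcrl in KO-labelled cells and Ramp3 in DM, all with at most 17 counts a library. It also limits Adm2 in KO DM, at or under the floor.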
